A study of Homo sapiens with 4 samples.

Results

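Alu elements are short interspersed repeats that spread through primate genomes by copying their RNA. An intact copy is a pair of related arms, has an internal promoter for RNA polymerase III and is rich in CpG, the dinucleotide at which vertebrate DNA is methylated and then slowly lost by mutation. AluJ copies are the oldest, AluS copies are of middle age and AluY copies are the youngest, and the FLAM, FRAM and FAM monomers are single-arm relatives. Trimethylation of histone H3 at lysine 4 (H3K4me3) marks active promoters, and most Alu copies lie outside them; the KDM5 enzymes remove this mark.

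The peaks described here are H3K4me3 peaks that lay in an Alu copy and away from annotated promoters. They were taken from the annotated peak table as intron or intergenic peaks whose overlapping repeat belongs to the Alu family and whose centre is more than 2 kb from the nearest annotated transcription start site (TSS). Of 110018 merged peaks, 9897 met this rule, of which 5731 were intergenic and 4166 intronic. By name 4485 were AluY, 4268 AluS, 1059 AluJ and 84 monomers, and 1 had no subfamily name.

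The mark was profiled by CUT&Tag, in which an antibody directs a transposase to the mark, in HCC1428 cells, an established line of breast adenocarcinoma with WT genotype. One group received the vehicle DMSO (dose 0) and the other 2.5 µM C48, an inhibitor of KDM5, and both were taken at day 5. Each group had 2 libraries (n = 2), labelled as biological replicates of 1 cell line. The sources used here do not say whether these were separate cultures; the p-values then cover only the spread between these libraries, which may be technical. The 4 libraries held 58.4 to 88.4 M aligned tags, with the most in DMSO replicate 1 and the fewest in C48 replicate 1, and 64.0% to 66.3% of tags lay in the merged peaks. A peak within 2 kb of the TSS was called in all 4 libraries for 7 of 10 luminal marker genes (KRT8, KRT19, ESR1, SPDEF, XBP1, TFF1 and ELF3). The luminal genes without one were KRT18, GATA3 and FOXA1. Of 13 markers of other cells, 3 had such a peak (COL1A1, COL1A2 and TP63). With the peak required to carry the promoter annotation the luminal and other counts were 2 and 0.

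Few of the 9897 peaks were strong in these cells. The consensus set includes libraries of other cell lines, and 6756 of the Alu peaks were called in none of the 4 libraries. The remaining 3141 were called in at least 1 library, and 969 of them in all 4. More were called after C48. The DMSO libraries had calls at 1347 and 1267 Alu peaks and the C48 libraries at 2419 and 2510, although DMSO replicate 1 was the deepest library. A total of 635 Alu peaks had calls in the 2 C48 libraries and in no DMSO library, and 26 showed the reverse. The same pattern held by subfamily. Of peaks called in at least 1 library, the counts were 53 against 6 of 262 AluJ, 230 against 14 of 1065 AluS and 351 against 5 of 1800 AluY peaks. Distal peaks in no annotated repeat had 2119 against 472 of 11898 so called, and all merged peaks 5533 against 1193 of 45692. Distal peaks in 2 other repeat families had 72 against 15 of 401 (MIR) and 363 against 41 of 3438 (L1). Over all merged peaks the libraries had 30162 and 29745 calls with DMSO and 37462 and 37867 with C48, so more calls after C48 were general.

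Values are HOMER tags per 10 M aligned tags, scaled between libraries with TMM factors, which take the bulk of the peaks as unchanged. Each direction below is therefore relative to that bulk. Of the 3141 peaks, 1694 fell below a mean scaled value of 5 and were not tested, which left 1447, of which 896 were AluY, 443 AluS, 103 AluJ and 5 monomers. The fit (limma-trend on log2(value + 1)) ran over all 33772 peaks that met the same conditions, and a peak is said to rise or fall where its adjusted p was below 0.05. A peak called only after C48 passed the filter through the C48 libraries, so the counts over tested peaks describe them and support no further statement.

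H3K4me3 at the tested Alu peaks was mostly higher after C48. The median scaled value was 8.39 and 8.46 with DMSO and 12.9 and 11.8 with C48, so the groups did not overlap. Over all peaks tested the medians were 50.5 and 50.2 with DMSO and 60.6 and 59.6 with C48, which did not overlap either. In the limma fit 628 Alu peaks rose (43.4%) and 92 fell (6.36%), with a median log2 fold change of 0.47. Over all 33772 peaks 32.3% rose and 39.2% fell, with a median of -0.02. The middle 50% of Alu peaks lay between 0.08 and 0.87, and 79.2% had a fold change above 0. Most of these peaks were weak, with a median value of 10.5, and the log2(value + 1) scale understates the change of a weak peak.

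The direction rested on the scaling. The median was 0.35 with DESeq2 factors, 0.85 with the values as deposited, 0.91 on the column total and 1.28 when libraries were scaled on ribosomal protein promoters. Over all peaks tested the median moved alike, to -0.15, 0.38, 0.44 and 0.84. With cyclic loess, which removes any trend of the fold change with peak strength, the median was -0.02, and 248 Alu peaks rose and 268 fell. AluJ peaks kept a median of 0.35 under cyclic loess, while AluS and AluY peaks had -0.02 and -0.04. Among peaks called in all 4 libraries, tested apart with TMM factors of their own, 518 of 954 Alu peaks rose and 31 fell, with a median of 0.54. The shares risen and fallen over all peaks of that fit, and of the cyclic loess fit, are not given here. These counts therefore describe the Alu peaks alone. Without C48 replicate 2 the peaks that fell numbered 55 in place of 92.

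AluJ, the oldest group, had the highest median. Of 103 AluJ peaks 63 rose and 9 fell, with a median log2 fold change of 0.87. Their median scaled value was 7.60 and 7.58 with DMSO and 14.4 and 13.1 with C48. Of 443 AluS peaks 202 rose and 35 fell, with a median of 0.49. Of 896 AluY peaks 363 rose and 47 fell, with a median of 0.44, and without C48 replicate 1 the risen AluY peaks numbered 236. Without C48 replicate 2 the fallen peaks numbered 5 for AluJ, 23 for AluS and 26 for AluY. The AluS and AluY medians were thus close to each other, and AluJ stood above both with the 10th to 90th percentile running from -0.50 to 2.15. Of the 5 monomers 1 fell and the other 4 did not pass the test. Among peaks called in all 4 libraries the AluJ, AluS and AluY medians were 0.62, 0.55 and 0.52. The differences between subfamilies were not tested.

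Intronic and intergenic Alu peaks had similar values. Of 399 intronic peaks 176 rose and 19 fell (median 0.50), and of 1048 intergenic peaks 452 rose and 73 fell (median 0.47). Without C48 replicate 2 the fallen peaks numbered 10 and 45.

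A rise at weak distal peaks was also measured outside Alu copies. Distal peaks in no annotated repeat had a median of 0.52, with 50.4% risen and 12.4% fallen of 6442. Distal peaks in MIR elements, an older family of short interspersed repeats, had a median of 0.53, with 51.3% risen and 14.4% fallen of 195. Distal peaks in L1, the long interspersed repeats whose enzymes copy Alu RNA, had a median of 0.20, with 30.3% risen and 13.4% fallen of 2387. The Alu share of risen peaks thus lay between L1 and the other distal peaks, and the Alu share of fallen peaks was the lowest of the 4 classes. These are descriptions of the classes without a test between them.

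**Figure D1:**
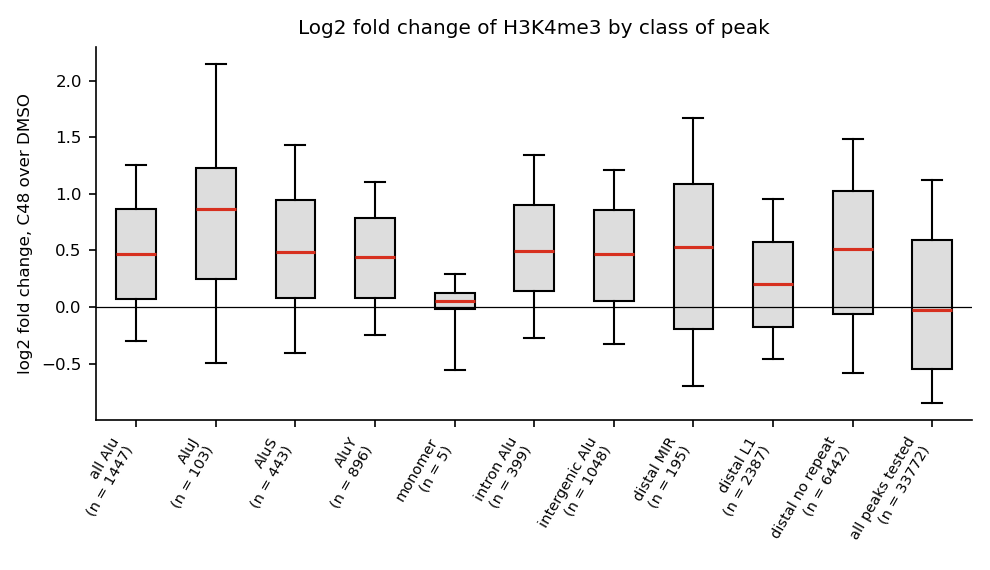
Log2 fold change of H3K4me3 (C48 over DMSO, vertical axis) for tested Alu peaks by group and for other distal peaks. Red lines are medians, boxes the middle 50% and whiskers the 10th to 90th percentile over peaks, with n the number of peaks; AluJ has the highest median (0.87), and all peaks tested sit near 0 (-0.02).

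Over all Alu peaks the fold change fell with the strength of the peak. Alu peaks with a mean value of 5 to 10 had a median log2 fold change of 0.57 (685 peaks), those of 10 to 20 had 0.46 (427), those of 20 to 50 had 0.28 (251), those of 50 to 100 had 0.11 (68) and the 16 above 100 had 0.05. The share that fell went from 2.04% in the weakest class to 29.4% at 50 to 100. AluJ gave no steady order, with 0.89 at 5 to 10 (47 peaks), 0.94 at 10 to 20 (30) and 0.63 at 20 to 50 (17). Above that AluJ had 0.04 at 50 to 100 (7 peaks) and 0.72 above 100 (2). Spearman's rho across peaks between mean value and fold change was -0.03 in AluJ, -0.17 in AluS and -0.22 in AluY. Distal peaks in no repeat kept a median of 0.55 at 20 to 50, or 0.19 under cyclic loess, where Alu peaks had 0.28, or -0.09. Under cyclic loess the Alu medians of the 4 weaker classes lay between -0.09 and 0.00, the 16 peaks above 100 had 0.29, and for AluJ peaks of 5 to 10 and 10 to 20 the medians were 0.35 and 0.45.

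**Figure D2:**
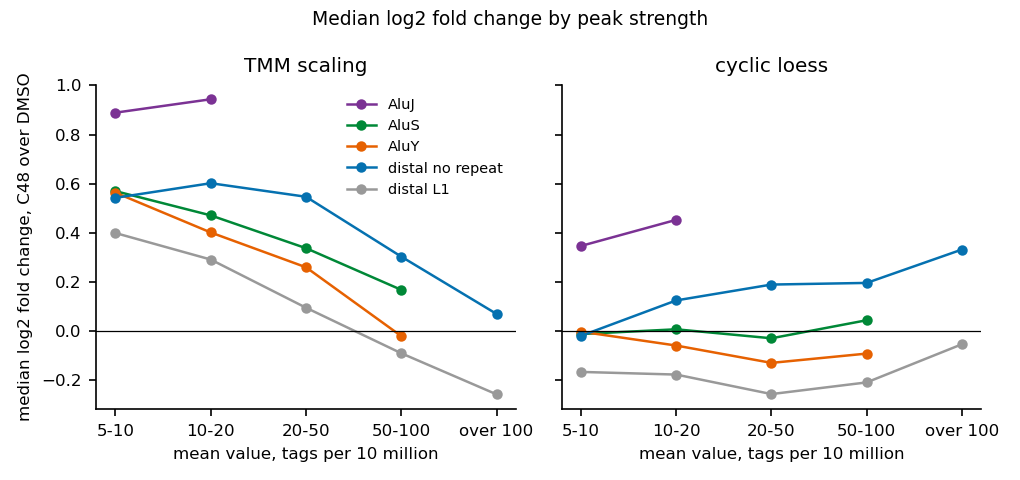
Median log2 fold change (vertical axis) of AluJ, AluS, AluY and other distal peaks by class of mean value (horizontal axis), with TMM scaling on the left and cyclic loess on the right; classes of under 20 peaks are left out. AluS and AluY medians fall with strength on the left and lie near 0 on the right, and AluJ lies above the other classes of peak in both panels.

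The CpG count of the peak's central 300 bases went with the fold change. AluJ, AluS and AluY windows held a median of 5, 10 and 14 CpGs, in the order of their age. Alu peaks with 0 to 4 CpGs had a median log2 fold change of 1.01 (78 peaks, 60.3% risen), those with 5 to 8 had 0.68 (254), those with 9 to 12 had 0.51 (418), those with 13 to 16 had 0.40 (387) and those with 17 or more had 0.28 (310 peaks, 29.0% risen). Within subfamilies Spearman's rho across peaks was -0.38 for AluJ, -0.34 for AluS and -0.24 for AluY. The classes did not fall steadily in each: the 3 AluY peaks with 0 to 4 CpGs had a median of 0.37, and the 3 AluJ peaks with 17 or more had 0.39, above 0.13 in the 4 with 13 to 16. These points share the same 4 libraries and are not independent replicates.

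At equal CpG count the subfamilies lay close together in some classes and apart in others. With 0 to 4 CpGs, the largest class of AluJ, the AluJ median was 1.15 (41 peaks) and the AluS median 0.90 (33 peaks), or 0.62 and 0.31 under cyclic loess. With 5 to 8 CpGs the medians of AluJ, AluS and AluY were 0.71, 0.66 and 0.69, and with 9 to 12 they were 0.51, 0.49 and 0.53. AluS and AluY were apart above that, with AluS at 0.16 and AluY at 0.47 for 13 to 16 CpGs, and with AluS at -0.11 and AluY at 0.30 for 17 or more. Of the 22 AluS peaks with 17 or more CpGs, 10 fell and 5 rose. CpG-rich AluS peaks were also stronger, with a median value of 22.6 against 7.25 in AluS peaks with 0 to 4 CpGs. Under cyclic loess rho between CpG count and fold change over the Alu peaks was -0.25, against -0.28 with TMM. For distal peaks in no repeat rho was -0.07 with TMM, and for L1 peaks it was -0.48.

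**Figure D3:**
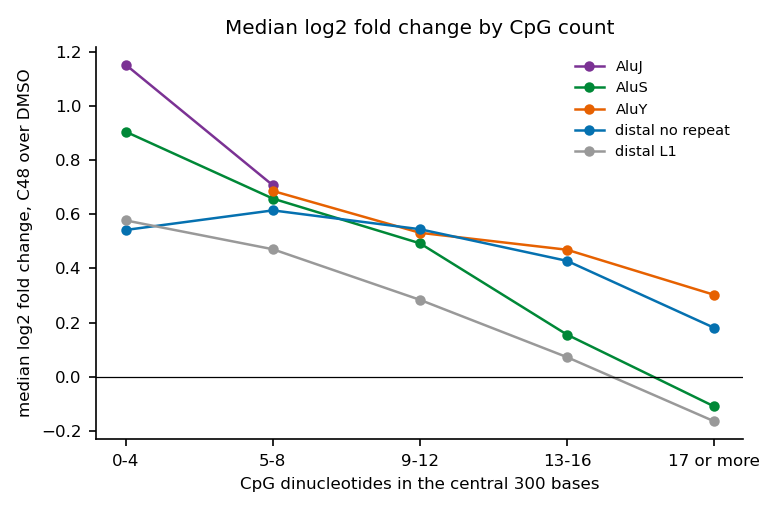
Median log2 fold change (vertical axis) by the number of CpG dinucleotides in the central 300 bases of the peak (horizontal axis); classes of under 20 peaks are left out. The AluS median goes from 0.90 at 0 to 4 CpGs to -0.11 at 17 or more, and distal peaks in no repeat stay between 0.43 and 0.61 up to 16 CpGs.

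The letters of the RNA polymerase III promoter in the windows also differed with age. TCGAGACC, the core of the B box of an intact Alu, was present on either strand in 34.9% of AluY windows, 14.0% of AluS windows and 8.74% of AluJ windows, and in 1.97% of the windows of all peaks tested. TTGAGACC or TCAAGACC, in which its CpG is replaced, was present in 10.8%, 24.6% and 29.1% of AluY, AluS and AluJ windows and in 1.99% of all. TCGAGACC holds a CpG, so it overlaps with the CpG count. A match is only a description of the letters in the window.

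Alu copies resemble each other, so a short read may fit many of them. The median share of 31-base words that occur only once in the hg38 chromosomes was 76.1% in AluJ windows, 49.3% in AluS windows and 35.0% in AluY windows, against 100% in distal windows with no repeat. Spearman's rho across peaks between this share and the fold change was -0.08 in AluJ, 0.05 in AluS and 0.05 in AluY. Alu peaks with under 20% of such words had a median log2 fold change of 0.42 (190 peaks), and those with 80% or more had 0.68 (71 peaks, of which 43 were AluJ). How reads were placed among copies was not tested.

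AluJ peaks often stood next to another peak. Another tested peak lay within 2 kb of 45 of 103 AluJ peaks (43.7%), 27.5% of AluS peaks and 14.3% of AluY peaks. The 45 AluJ peaks with such a neighbour had a median log2 fold change of 1.14, with 34 risen and 1 fallen. The 58 without one had 0.54, with 29 risen and 8 fallen. For AluS the medians were 0.70 with a neighbour and 0.43 without, and for AluY 0.54 and 0.43. Without neighbours the 3 subfamilies were therefore closer than in the whole set. Of the 296 Alu peaks with a neighbour, the neighbour lay in no annotated repeat for 127, in another Alu copy for 81 and carried the promoter annotation for 2. The fold changes of a peak and its neighbour had the same sign in 213 of the 296, with rho of 0.39 across pairs, some of which share a peak.

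Distance from the TSS gave no steady order. Alu peaks 2 to 5 kb from a TSS had a median of 0.72 (48 peaks), those at 5 to 10 kb 0.33 (118), those at 10 to 50 kb 0.34 (473) and those beyond 50 kb 0.52 (808). Of those beyond 50 kb, 374 rose and 23 fell. At the limit of the rule, the nearest member lay 2005 bases from the TSS of PRDX1 and had 29.4 and 37.7 tags per 10 M in DMSO and 34.4 and 44.7 in C48. The Alu peak just inside the limit, 1970 bases from the TSS of TRIM7, had 197.9 and 205 in DMSO and 118 and 144 in C48.

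The tested Alu peaks were spread over every autosome and X. Chromosome X held 131 of them (9.05%), against 3.55% of distal peaks in no repeat, and chromosome 8 held 121. The densest stretch was on chromosome 6 between 27000000 and 28000000, a region with histone and tRNA gene clusters, where 4 of 17 Alu peaks rose and 4 fell. On chromosome 20, 10 of 11 Alu peaks between 54000000 and 55000000 rose and 10 of 12 between 55000000 and 56000000 rose. Over the whole of chromosome 20, 29 of 42 Alu peaks rose. Stretches with 8 Alu peaks on chromosomes 7, 17 and 1 had 7, 7 and 5 risen. The shares over all tested peaks of these stretches are not given here, so these counts describe the Alu peaks alone.

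Single peaks are named from those with a mean value of at least 20 whose groups did not overlap, and the extremes below are extremes among these. Weaker peaks with larger changes are not named. Every rise named below had a DMSO mean below 20 and so reached this limit through the C48 libraries. The p-values of these rises describe chosen peaks and support no further statement. Among such AluJ peaks, the largest rise was at an AluJb copy 56.1 kb from KIF4B, an intergenic peak at chr5:155069626-155070129. Its scaled values were 3.55 and 1.58 in DMSO and 36.0 and 48.02 in C48, so the C48 mean was 16.4 times the DMSO mean. The log2 fold change was 3.63 ± 0.26 (SE, limma adjusted p = 5.51e-17). A second AluJb copy lies in intron 2 of KIAA1217, at chr10:24240785-24241158, and its peak was called in 1 of the 4 libraries. It had 11.8 and 11.1 in DMSO and 94.0 and 109 in C48, a log2 fold change of 3.03 ± 0.15 (limma adjusted p = 7.45e-23). Both stood within 302 bases of another peak in no repeat that rose, by 2.42 and 2.18 on the log2 scale. The third, an AluJb copy in intron 1 of MATR3, which encodes an RNA-binding protein of the nuclear matrix, had 17.1 and 21.3 in DMSO and 75.8 and 81.7 in C48. It lies 2135 bases from the TSS, close to the limit of the rule, and its nearest tested peak, 1413 bases away, had a log2 fold change of -1.07.

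The largest falls among AluJ peaks of at least this mean were smaller. An AluJo copy near LINC01549 had 56.7 and 59.4 in DMSO and 35.8 and 36.1 in C48, a log2 fold change of -0.67 ± 0.13 (limma adjusted p = 1.26e-05). An AluJo copy near AKAP10 and an AluJb copy near AKAP14 had -0.59 and -0.57. Neither of these falls was called as deposited or on the column total, and the LINC01549 fall was not called on the column total. Scaling on ribosomal protein promoters gave all 3 values above 0 (0.16, 0.24 and 0.27), and without C48 replicate 2 the AKAP10 peak had -0.37 and was not called (adjusted p = 0.123).

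Among AluS peaks with a mean of at least 20 the largest rise was at an AluSx copy 31.3 kb from NFRKB, which encodes a subunit of the INO80 chromatin remodeller. It had 8.26 and 9.69 in DMSO and 51.6 and 45.6 in C48. Its log2 fold change was 2.31 ± 0.19 (limma adjusted p = 2.25e-15), and a peak in no repeat 641 bases away had 2.94. An AluSz copy near CADM4, a cell adhesion gene, had 5.25 and 10.8 in DMSO and 31.8 and 39.0 in C48, and its peak was called in 1 of the 4 libraries. An AluSc copy near ABCA9-AS1 had 11.7 and 11.1 in DMSO and 42.4 and 42.0 in C48. In all 3 the lowest C48 value was above the highest DMSO value, which the choice of these peaks required.

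The strongest Alu peaks were AluS copies, and they fell. The AluSx copy in intron 1 of the transcript LOC100288866, at chr17:49569596-49570263, had 344 and 349.9 in DMSO and 163 and 182 in C48. Its log2 fold change was -1.01 ± 0.07 (limma adjusted p = 2.91e-18), -0.60 under cyclic loess and -0.15 on ribosomal protein promoters. An AluSq copy near LOC100131289, in the dense stretch of chromosome 6, had 332 and 339 in DMSO and 167 and 173 in C48, a log2 fold change of -0.98 ± 0.07 (limma adjusted p = 4.25e-18). The third strongest, an AluSx1 copy 8.55 kb from MDM4, which encodes an inhibitor of p53, had 295 and 288 in DMSO and 198 and 221 in C48. Its log2 fold change of -0.48 turned to 0.38 on ribosomal protein promoters. The fall was not called under cyclic loess (-0.07), as deposited (-0.08) or on the column total (-0.01). This peak stands 173 bases from a peak in a lysine tRNA repeat with -0.93. The third AluS fall of at least this mean, an AluSq2 copy near NFIA, a transcription factor gene, had 59.4 and 57.8 in DMSO and 32.4 and 26.9 in C48. On ribosomal protein promoters the falls near NFIA (-0.129) and LOC100131289 (-0.125) were not called.

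The largest rises among AluY peaks with a mean of at least 20 were smaller than those named for AluJ and AluS. The largest falls among these AluY peaks were larger than the AluJ falls and smaller than the AluS falls. A pair of AluY copies near REEP5, a gene for a protein that shapes the endoplasmic reticulum, gave the 2 largest rises among these and stand 558 bases apart, so they are not independent. The first had 6.81 and 11.1 in DMSO and 31.2 and 30.9 in C48 (log2 fold change 1.72 ± 0.21, limma adjusted p = 1.19e-09). The second had 10.8 and 11.1 in DMSO and 26.5 and 35.2 in C48 (1.40). An AluY copy 444 kb from DOK5 on chromosome 20 had 15.5 and 15.7 in DMSO and 40.2 and 42.1 in C48 (1.35). The largest fall among these was at an AluYk2 copy near CDC42EP3, with 49.1 and 53.1 in DMSO and 28.7 and 27.1 in C48, a log2 fold change of -0.85 ± 0.14 (limma adjusted p = 1.02e-06) that was -0.01 on ribosomal protein promoters. AluY copies near ZBTB8A and FCRL5 had -0.81 and -0.80, and these became 0.006 and 0.011 on that scaling. As deposited and on the column total both falls lost the call. Neither was called without one library: ZBTB8A had -0.45 without DMSO replicate 2 and FCRL5 had -0.48 without C48 replicate 2. The 1 monomer that fell, a FLAM_C copy near SLC25A3, the mitochondrial phosphate carrier gene, had 111 and 104 in DMSO and 58.4 and 54.9 in C48. Its fall was not called on ribosomal protein promoters (-0.069).

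**Figure D4:**
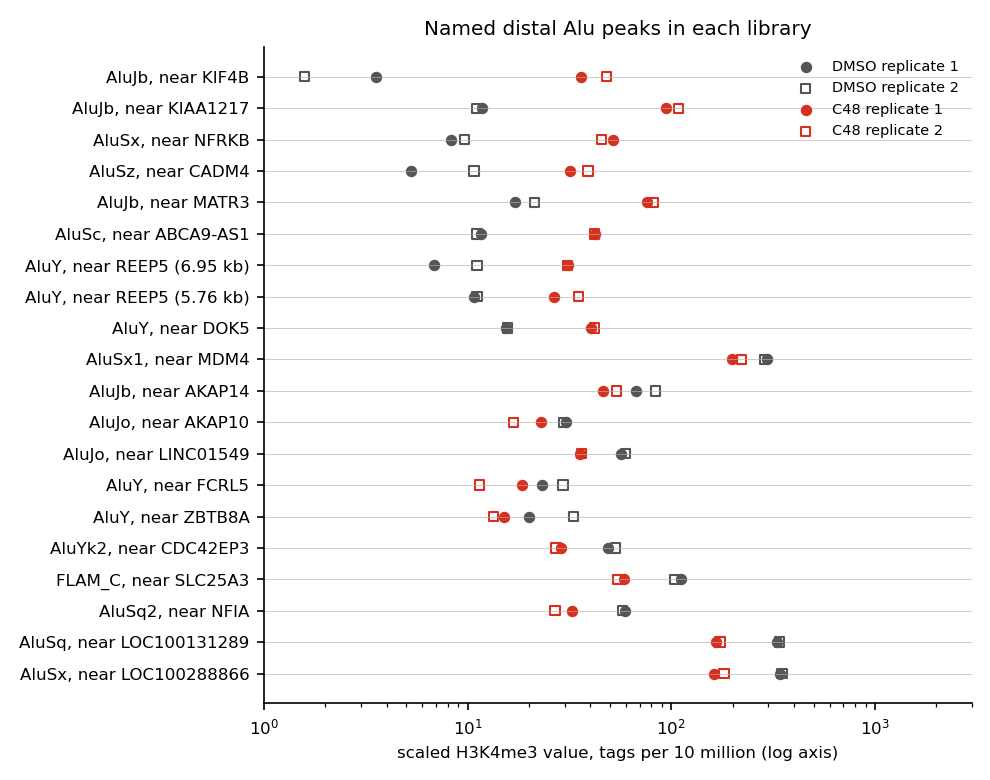
Scaled H3K4me3 value (tags per 10 M, log axis) of the 20 named Alu peaks in each of the 4 libraries, ordered by log2 fold change. Gray marks are DMSO and red marks C48, with circles for replicate 1 and squares for replicate 2; of these the largest rise is at AluJb near KIF4B and the largest fall at AluSx near LOC100288866.

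No tested Alu peak had its nearest gene in the study's interferon-stimulated or antigen presentation signatures, which hold 72 genes in all. Of the 9897 Alu peaks, 12 had such a gene nearest, and none of the 12 passed the filter.

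The repeat table gave a second readout of the same libraries, which counts reads over all copies of a subfamily, in peaks or not. Its totals were 14.8 and 11.3 M reads in DMSO and 11.7 and 14.0 M in C48. Alu subfamilies took 15.9% and 16.02% of these reads in DMSO and 21.2% and 21.5% in C48, so the groups did not overlap, and the ratio of the means was 1.34. Simple repeats took 32.1% and 31.6% in DMSO and 22.9% and 23.4% in C48, and a share of one class moves with the others. AluJ took 3.91% and 3.99% in DMSO and 5.22% and 5.26% in C48. AluS took 8.71% and 8.73% in DMSO and 11.6% and 11.8% in C48. AluY took 2.68% and 2.69% in DMSO and 3.64% in both C48 libraries. Within Alu reads the makeup hardly moved, with AluJ at 24.5% to 24.9%, AluS at 54.5% to 54.8% and AluY at 16.8% to 17.1% of Alu reads in the 4 libraries.

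All 53 Alu subfamilies tested in the repeat table rose (edgeR quasi-likelihood test, adjusted p below 0.05), against 31.6% risen and 33.4% fallen of all 4364 subfamilies tested. Their log2 fold changes lay between 0.37 and 0.57, with a median of 0.46, against 0.02 over all subfamilies. Simple repeats made up 14226 of the 15583 subfamilies before the filter, so the values over all subfamilies tested rest mostly on simple repeats. All 5 MIR subfamilies also rose, with a median of 0.43, and 64 of 132 L1 subfamilies rose and 36 fell. The Alu median was 0.22 when the TMM factors were computed without simple repeats. Medians were 0.45 for 4 AluJ, 0.49 for 17 AluS, 0.43 for 27 AluY and 0.50 for 4 monomer subfamilies. AluJ subfamilies thus did not lie above the others in this readout.

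The youngest names spanned the range. AluY had a TMM-scaled CPM (reads per 1 M repeat reads) of 14473 and 14085 in DMSO and 21020 and 21271 in C48, a log2 fold change of 0.57 ± 0.02 (edgeR adjusted p = 1.51e-11). AluYb8, a young group, had 502 and 508 CPM in DMSO and 656 and 649 in C48 (0.37 ± 0.03, edgeR adjusted p = 7.72e-08). AluJo had 9558 and 9631 CPM in DMSO and 13769 and 13953 in C48 (0.53 ± 0.02), and AluJr had 10832 and 10941 in DMSO and 14145 and 14306 in C48 (0.39 ± 0.02). AluJb and AluSx, among the most abundant, had 0.52 and 0.50. The extremes among AluS were AluSc5 with 0.55 and AluSx4 with 0.42, and among monomers FLAM_A with 0.52 and FRAM with 0.46. In each of these the C48 libraries lay above the DMSO libraries. Reads that fit several subfamilies were shared between them, so neighbouring names are not independent.

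**Figure D5:**
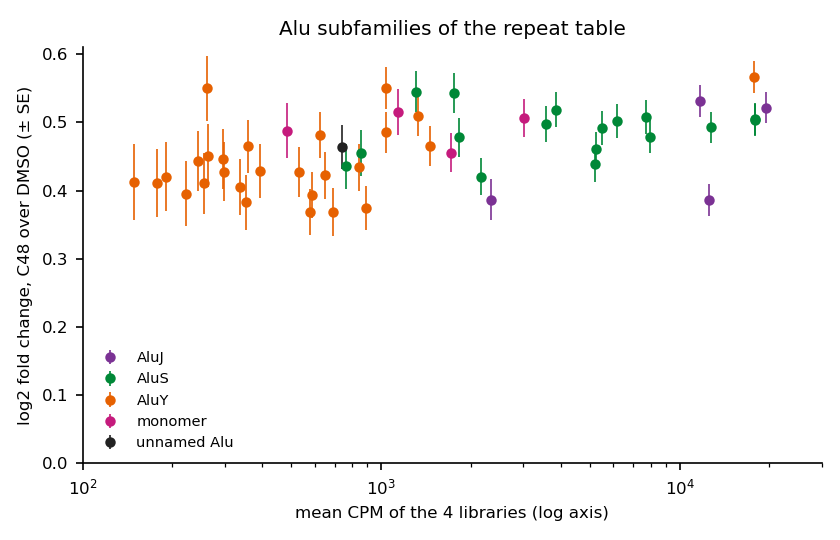
Log2 fold change ± SE (edgeR, vertical axis) of the 53 tested Alu subfamilies of the repeat table against their mean CPM over the 4 libraries (log axis). Colours mark AluJ, AluS, AluY, monomers and 1 subfamily with no further name; every point lies between 0.37 and 0.57.

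The order of names did not carry from one readout to the other. AluJr had the lowest value of its group in the repeat table, and the 16 AluJr peaks had the highest median of the AluJ names, 1.16, with 14 risen. AluJb peaks had a median of 0.78 (56 peaks) and AluJo peaks 0.39 (25 peaks), and the 6 AluJr4 peaks had 0.55. Over the 25 subfamilies with at least 10 tested peaks, Spearman's rho between the median of the peaks and the value of the repeat table was 0.19, a description over names that share libraries.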

How the data were processed

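The authors aligned CUT&Tag reads to hg38 with Bowtie2 2.3.4.1 (submitters' processing notes), called peaks per library with HOMER and merged them. Per the file headers, the deposited peak signal is tags per 10 M aligned tags, without spike-in scaling; 100% of values were whole multiples of 1 tag within 0.1 tags. The deposited RepEnrich2 table holds read counts per repeat subfamily. Spike-in counts were not used here. Peak values were scaled by TMM on recovered tags and tested with limma 3.58.1 (limma-trend, pseudocount 1, mean of at least 5). Subfamilies were tested with edgeR 4.0.16 (quasi-likelihood, TMM, filterByExpr; 4364 of 15583). Adjustment was by Benjamini-Hochberg over all features, with calls at 0.05. Both tests were run on simulated data in which few features changed, up and down alike, so the choice of scaling was not tested there. Tested members had a median of 76 tags per library. Named peaks are, for AluJ, AluS and AluY, the 3 largest rises and falls among called peaks with a mean of at least 20 and no overlap between groups, 1 of each for monomers, and the 3 strongest; named subfamilies are the extremes of each group, AluJb, AluSx and AluY. Members and lists were chosen with earlier results of these data known. Sequence features were read from windows of 300 bases of hg38; the sequences of single peaks are not reported here. R 4.3.3, DESeq2 1.42.0, Python 3.11.15, numpy 2.4.6 and pandas 2.3.3 were used. The alternatives varied the scaling, the filter, the pseudocount, the test, the peaks entering the fit and the replicates.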

Additional observations from a re-analysis of the deposited data

How the results depend on the processing

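Medians below are log2 fold changes of the peaks in the order all Alu, AluJ, AluS and AluY. Counts of peaks are of Alu peaks alone. The shares over all peaks under each alternative are not given here, so no count is set against them. They were 0.35, 0.75, 0.36 and 0.32 with DESeq2 factors, 0.85, 1.24, 0.86 and 0.84 as deposited (1071 Alu peaks higher, 19 lower), 0.91, 1.30, 0.92 and 0.90 on the column total (1139 and 13) and 1.28, 1.65, 1.28 and 1.26 on ribosomal protein promoters (1436 and 2). With cyclic loess, which by construction removes a trend with strength, they were -0.024, 0.35, -0.015 and -0.043 (248 and 268), -0.022 for intronic and -0.025 for intergenic Alu peaks. The edgeR test on tags gave 0.61, 1.04, 0.64 and 0.59 with 745 higher and 60 lower, of which 627 and 60 were the calls of limma, and the DESeq2 test 0.55, 0.97, 0.58 and 0.53 with 50 lower. With a pseudocount of 5 they were 0.34, 0.61, 0.34 and 0.33. Over peaks called in all 4 libraries they were 0.54, 0.62, 0.55 and 0.52 with 31 lower, where fewer peaks were tested. All merged peaks gave 0.55, 0.51 for AluY and 0.57 for AluS. No filter gave 0.65, 0.70 for AluS and 0.62 for AluY with 1214 higher, and a mean of at least 10 gave 0.38, 0.38 for AluS and 0.33 for AluY with 344 higher, of more and fewer peaks tested. The 5 monomers turned to -0.061 with DESeq2 factors, -0.42 with cyclic loess, -0.020 with a mean of at least 10 (3 peaks), and lay between -0.097 and 0.166 on leaving out 1 library. A pseudocount of 0.5, main chromosomes alone and a distance above 10 kb left the counts within 1.5 times and the 4 medians within the spread between libraries. Leaving out 1 library, which assumes that a lone library varies like the other group, gave medians of 0.44 to 0.50, 0.73 to 0.88, 0.43 to 0.55 and 0.41 to 0.47, with 433 to 600 Alu peaks higher and 55 to 85 lower.

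In the repeat table all 53 Alu subfamilies stayed higher under every alternative, with a median of 0.39 on the column total, 0.22 with TMM without simple repeats and 0.43 to 0.48 on leaving out 1 library. Of 280 values of the 20 named peaks under the alternatives, 255 kept their direction and call, 19 lost the call and 6 turned: on ribosomal protein promoters the falls near LINC01549, AKAP10, AKAP14, ZBTB8A, FCRL5 and MDM4 became 0.16, 0.24, 0.27, 0.006, 0.011 and 0.38. Apart from the 2 constructions named above, the cause of these shifts was not tested. The replicate block gave 622 Alu peaks higher and 90 lower, and 53 subfamilies higher; same-numbered libraries did not deviate together (correlation -0.03 over peaks and -0.02 over subfamilies), so the numbers were not taken as pairs. Within groups, tags varied by 3.16 (DMSO) and 3.01 (C48) times the variance of independent counts (chi-square per degree of freedom). The libraries of a group were therefore counted apart, though such a spread can be technical. If the 2 mates of a pair each count as a tag, the counting noise is larger and this excess is overstated.

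Without the spike-in counts, a change common to every region cannot be measured. With 2 libraries a group, tests pool their spread over peaks, and most Alu peaks hold few tags, which makes small changes at single weak peaks undetectable at this depth.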
